A study of Mus musculus with 21 samples.

Results

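Collagens are the structural proteins of the extracellular matrix, and their accumulation is what defines a fibrotic liver. The genes described here are the protein-coding genes whose symbol names a collagen alpha chain (Col, a type number, a and a chain number), taken by name from each of the 3 deposited expression tables. There were 44 such genes of 54532 in the CCl4 table, the same 44 names of 54532 in the hepatocyte table, and 43 of 34280 in the thioacetamide (TAA) table, where Col19a1 was annotated without a coding transcript. They comprised 11 chains of fibrillar collagens, 8 chains of basement membrane collagens and 25 chains of other types (24 in the TAA table).

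Fibrillar collagens (types I, III, V and others) are secreted as procollagens, trimmed at both ends and assembled into cross-linked fibrils. Type I and type III form most of the scar in fibrotic liver, and activated hepatic stellate cells and portal fibroblasts are their main known source. Type IV forms the network of basement membranes, types XV and XVIII are attached to these as proteoglycans, type VI forms beaded filaments around cells, and types such as XII, XIV and XVI associate with fibril surfaces.

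RNA was sequenced in 21 mouse libraries in 7 groups of 3. In the CCl4 table, 3 livers labelled Sting knock out and 3 wild-type livers came from mice injected intraperitoneally with carbon tetrachloride (CCl4), a hepatotoxin that causes fibrosis, and 3 wild-type livers came from mice injected with oil. In the TAA table, 3 livers labelled with a deletion of Nlrp3 in hepatocytes and 3 wild-type livers came from mice injected with TAA, another fibrosis-inducing hepatotoxin. In the hepatocyte table, 6 cultures of wild-type primary hepatocytes received lipopolysaccharide (LPS, 1 µg/mL) for 6 h and nigericin (10 µM) for 30 min, and 3 of them had first received the NLRP3 inhibitor MCC950 (10 µM) for 2 h. The labels give 6 weeks of injection for oil and CCl4, where the series' design text gives 8 weeks for CCl4; both give 8 weeks for TAA. The labels give no sex, age or strain, no allele for either gene, and no driver for the hepatocyte deletion. No oil-treated Sting knockout livers, livers without TAA or unstimulated hepatocytes were analysed here.

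TAA libraries held 32096879 to 68913793 counts. Reads recovered from FPKM and gene length numbered 14353483 to 16684832 in each liver of the CCl4 table, and 14883711 to 17157586 in each hepatocyte culture. No pair of libraries held identical values. Sting1, listed as Tmem173, was at 3.42, 1.98 and 5.28 FPKM in the livers labelled Sting knockout, against 6.10, 5.15 and 4.74 FPKM in wild-type CCl4 livers, so the values overlapped. The titles of these 3 libraries also carry codes that begin with SWT, and they are called the libraries labelled Sting knockout throughout. Nlrp3 itself had 23, 105 and 83 counts in the TAA livers labelled with the deletion, against 36, 24 and 28 counts in wild-type TAA livers, so it was not lower under that label (exact permutation test on FPKM, two-sided p = 0.4, where 0.1 is the smallest p possible). Whole-liver counts also hold RNA of cells other than hepatocytes and do not check a deletion in hepatocytes, so these livers are called the labelled deletion livers. Mitochondrially encoded genes took 12.5%, 5.63% and 6.94% of counts in the labelled deletion livers, against 30.4%, 34.7% and 27.8% in wild-type TAA livers.

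Most of the collagen genes tested were higher after CCl4 in wild-type liver. The largest differences in log2(FPKM + 1) were those of the type I and III chains. That scale understates changes of low genes, and the order depends on it. By a count test on recovered reads (edgeR), Col5a2 (log2 difference 4.36) and Col6a5 (4.66, under the limma filter) stood above Col3a1 (4.25). Of the 18 collagen genes that averaged 1 FPKM or more over the 9 libraries, 14 were higher and 1 was lower after CCl4 than after oil (limma, adjusted p under 0.05). Among all 11511 genes tested 9.19% were higher and 6.15% were lower. The median difference in log2(FPKM + 1) was 1.89 over the 18 collagen genes and -0.08 over all genes tested. These 18 are not all members: 26 lay under the filter, 3 of which (Col2a1, Col19a1 and Col26a1) had 0 reads in all 9 libraries. Of the 18, 5 (Col5a2, Col6a2, Col6a3, Col4a5 and Col16a1) averaged under 1 FPKM in oil and passed only through the CCl4 livers. The counts therefore describe the chains that passed and are no support on their own. In whole liver, more cells of a type and more RNA per cell cannot be told apart.

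**Figure D1:**
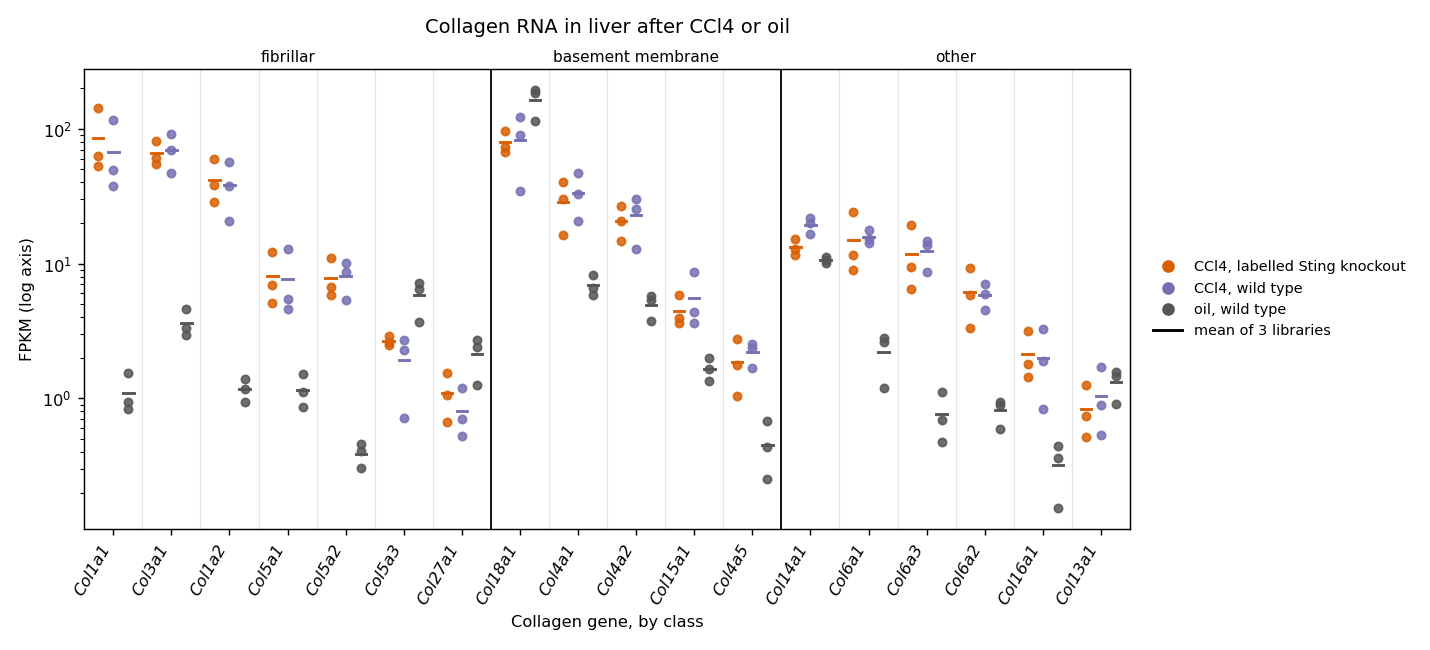
FPKM of the 18 collagen genes that averaged 1 FPKM or more, on a log axis, in 3 CCl4 livers labelled Sting knockout, 3 wild-type CCl4 livers and 3 wild-type oil livers. Points are libraries and bars are means. The 2 CCl4 groups lie together for nearly every gene, above oil for the type I, III, IV, V (apart from Col5a3) and VI chains.

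Type I collagen, the heterotrimer of the Col1a1 and Col1a2 chains, showed the widest separation. Col1a1 (ENSMUSG00000001506, chromosome 11, 94936224 to 94953042, mm10, plus strand) was at 37.4, 116 and 49.1 FPKM in wild-type CCl4 livers and 1.54, 0.944 and 0.828 FPKM in oil livers. Its lowest CCl4 liver stood far above its highest oil liver, and replicate 2 of the CCl4 livers was the highest of its group. The difference in log2(FPKM + 1) was 4.87 ± 0.45 (SE, limma adjusted p = 0.000161), and the ratio of mean FPKM was 61.0. Col1a2 (chromosome 6, 4504814 to 4541544) was at 20.8, 56.3 and 37.6 FPKM in CCl4 livers and 1.39, 1.18 and 0.934 FPKM in oil livers, a difference of 4.08 ± 0.36 (SE, limma adjusted p = 0.000137). The groups did not overlap, with replicate 2 again highest among CCl4 livers and replicate 1 lowest.

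Col3a1, the single chain of type III collagen, which forms fine reticular fibrils and copolymerises with type I, was the highest of the type I and III chains in oil. It was at 46.7, 91.5 and 70.2 FPKM in wild-type CCl4 livers and 4.58, 3.32 and 2.97 FPKM in oil livers. The groups did not overlap (log2 difference 3.89 ± 0.30, SE, limma adjusted p = 5.4e-05). The ratio of Col1a1 to Col3a1 FPKM was 0.80, 1.26 and 0.699 in CCl4 livers and 0.337, 0.284 and 0.279 in oil livers, so Col1a1 was raised more than Col3a1 in every CCl4 liver. Col1a1 to Col1a2 was 1.80, 2.06 and 1.31 in CCl4 livers and 1.11, 0.803 and 0.886 in oil livers, which did not overlap either. Both ratios are descriptions, with no test.

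Type V collagen nucleates type I fibrils and sets their diameter, and its 3 chains did not move together. Col5a2 was at 5.38, 10.2 and 8.68 FPKM in CCl4 livers and 0.459, 0.406 and 0.303 FPKM in oil livers (log2 difference 2.67 ± 0.27, SE, limma adjusted p = 0.000198). Col5a1 was at 5.46, 12.9 and 4.57 FPKM in CCl4 livers and 1.51, 1.12 and 0.86 FPKM in oil livers (log2 difference 1.89 ± 0.37, SE, limma adjusted p = 0.00668). Both were higher in all 3 CCl4 livers. Col5a3 (chromosome 9, 20770050 to 20815067, minus strand), the least widely expressed type V chain, went the other way, at 2.73, 2.29 and 0.719 FPKM in CCl4 livers and 7.21, 6.49 and 3.71 FPKM in oil livers. The groups did not overlap, and replicate 3 was the lowest library in each group. The log2 difference was -1.26 ± 0.30 (SE, limma adjusted p = 0.0194); that call ended without oil replicate 1 (adjusted p = 0.0806), without oil replicate 2 (adjusted p = 0.0776) and with no filter (adjusted p = 0.065). In oil, Col5a3 was the highest fibrillar chain at a mean of 5.80 FPKM, above Col3a1 at 3.62 FPKM, with ranges that overlapped.

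Col27a1, a fibrillar chain best known from cartilage, was at 0.697, 1.20 and 0.529 FPKM in CCl4 livers and 2.71, 2.42 and 1.25 FPKM in oil livers. All 3 CCl4 values were the lower ones, but the difference did not pass the test (log2 difference -0.78 ± 0.26, SE, limma adjusted p = 0.0664). The other fibrillar chains, Col2a1 and Col11a1, Col11a2 and Col24a1, were at or below 0.226 FPKM in every library. The order of the fibrillar chains by mean FPKM was Col3a1, Col1a1, Col1a2, Col5a2, Col5a1, Col5a3 and Col27a1 in CCl4 livers. Ranges overlapped between Col3a1, Col1a1 and Col1a2, between Col5a2 and Col5a1, and between Col5a3 and Col27a1.

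The stretch of 150 bases before the annotated start is shown for 3 collagen genes, 2 that were higher after CCl4 (Col3a1 and Col6a3) and the type V chain that was lower (Col5a3), as a view of what lies at genes that moved apart. The sequences are from RefSeq promoter windows on GRCm38.p6, each 5′ to 3′ on the gene's own strand, and capitals mark matches on either strand to CCAAT (a motif known for NF-Y), GGGCGG (known for Sp1), TATAAA (the TATA box) or CAGACA (which holds a SMAD core). The windows are chr1:45311388-45311537 (plus strand) for Col3a1, chr1:90843972-90844121 (minus strand) for Col6a3 and chr9:20815068-20815217 (minus strand) for Col5a3.
Col3a1: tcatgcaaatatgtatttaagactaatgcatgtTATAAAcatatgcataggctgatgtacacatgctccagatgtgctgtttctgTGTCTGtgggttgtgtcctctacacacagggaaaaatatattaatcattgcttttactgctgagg
Col6a3: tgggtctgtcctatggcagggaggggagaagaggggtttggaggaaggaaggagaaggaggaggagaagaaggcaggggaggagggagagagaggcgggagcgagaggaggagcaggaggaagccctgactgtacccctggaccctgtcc
Col5a3: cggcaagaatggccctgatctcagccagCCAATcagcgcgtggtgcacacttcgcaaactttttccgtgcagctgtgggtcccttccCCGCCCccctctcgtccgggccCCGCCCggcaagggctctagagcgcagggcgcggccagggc

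The Col3a1 stretch was 37.3% G and C and held 1 TATAAA and 1 CAGACA match, the Col6a3 stretch was 62.7% G and C and held no match, and the Col5a3 stretch was 68.7% G and C and held 1 CCAAT and 2 GGGCGG matches. Over the full windows, from 250 bases before to 50 bases after the start, 35 members had an entry, with 38 windows. CCAAT was in 13 of the 38 windows (34.2%), against 37.4% of all 32851 promoter windows. TATAAA was in 5 of 38 (13.2%), against 13.6% of all windows, and CAGACA in 9 of 38 (23.7%), against 21% of all. GGGCGG was in 23 of 38 (60.5%), against 35.7% of all. Both strands were searched and each motif was counted on its own, and a match describes the letters and not binding.

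Several members are neighbours, and neighbours did not always share a level. Col4a1 and Col4a2 lie head to head on chromosome 8 (11198423 to 11312826 on the minus strand and 11312805 to 11449287 on the plus strand), with 22 bases in common at their 5′ ends, and their values stayed within a narrow ratio in the livers, given with their values. Col4a3 and Col4a4, also head to head with starts 72 bases apart, averaged at most 0.174 FPKM in any group of the CCl4 table. Col4a5 and Col4a6 are also head to head, on the X chromosome with starts 1309 bases apart. Col4a5 was at 1.68, 2.55 and 2.35 FPKM in wild-type CCl4 livers, and Col4a6 at 0.145, 0.329 and 0.324 FPKM in the same livers. Col3a1 and Col5a2 lie tail to tail on chromosome 1, 24614 bases apart, and both rose after CCl4 in the limma test.

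Of the 5 basement membrane chains tested, 4 rose (Col4a1, Col4a2, Col4a5 and Col15a1), each by less than the type I and type III chains. Col4a1 and Col4a2 encode the chains of the ubiquitous type IV heterotrimer. Col4a1 was at 33.1, 47.0 and 20.8 FPKM in CCl4 livers and 8.28, 6.56 and 5.90 FPKM in oil livers (log2 difference 2.07 ± 0.37, SE, limma adjusted p = 0.00416). Col4a2 was at 25.4, 30.3 and 12.9 FPKM in CCl4 livers and 5.75, 5.38 and 3.76 FPKM in oil livers (log2 difference 1.93 ± 0.34, SE, limma adjusted p = 0.00374). Neither overlapped, and CCl4 replicate 2 was the highest library for each. Their ratio, Col4a1 to Col4a2, was 1.30, 1.55 and 1.62 in CCl4 livers and 1.44, 1.22 and 1.57 in oil livers, so the balance of the chains lay in one range.

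Col4a5, a chain of the specialised type IV networks of kidney and smooth muscle, was at 0.675, 0.25 and 0.432 FPKM in oil livers, below each CCl4 liver given above (log2 difference 1.14 ± 0.25, SE, limma adjusted p = 0.0118). Its call ended without oil replicate 2 (adjusted p = 0.0575). Col15a1, a proteoglycan collagen of vascular and other basement membranes, was at 3.60, 8.69 and 4.38 FPKM in CCl4 livers and 2.01, 1.64 and 1.34 FPKM in oil livers (log2 difference 1.23 ± 0.28, SE, limma adjusted p = 0.0157). That call ended without oil replicate 2 (adjusted p = 0.056), without oil replicate 3 (adjusted p = 0.0661) and with no filter (adjusted p = 0.0531). Col4a3 (0.116, 0.142 and 0.264 FPKM in CCl4 livers, 0.0791, 0.0537 and 0.0376 FPKM in oil), Col4a4 (0.171, 0.0889 and 0.152 FPKM in CCl4 livers, 0.13, 0.108 and 0.0441 FPKM in oil) and Col4a6 (0.0494, 0.0671 and 0.0117 FPKM in oil) were under the filter.

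Col18a1 (ENSMUSG00000001435, chromosome 10, 77052178 to 77166548), whose C-terminal fragment is endostatin and which hepatocytes are known to make, was the most abundant collagen RNA in oil. It was at 122, 90.6 and 34.4 FPKM in wild-type CCl4 livers and 194, 184 and 113 FPKM in oil livers. The highest CCl4 liver lay above the lowest oil liver, and the difference did not pass the test (log2 difference -1.13 ± 0.44, SE, limma adjusted p = 0.12). With the replicate number as a block the adjusted p was 0.0364, the lowest of its alternatives, which ran to 0.311. Col18a1 overlaps the oppositely oriented gene Slc19a1 by 8825 bases in the annotation, and the sources used here do not state whether strand was used in counting.

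Among the other types, the 3 tested beaded filament chains all rose. Col6a2 and Col6a3 averaged 0.814 and 0.765 FPKM in oil and passed the filter only through the CCl4 livers, so that count is no support on its own. Col6a1, Col6a2 and Col6a3 form the classical type VI molecule. Col6a3 was at 8.62, 14.7 and 13.7 FPKM in CCl4 livers and 1.12, 0.696 and 0.477 FPKM in oil livers (log2 difference 2.90 ± 0.35, SE, limma adjusted p = 0.000562). Col6a1 was at 14.3, 15.3 and 17.9 FPKM in CCl4 livers and 2.81, 2.60 and 1.20 FPKM in oil livers (log2 difference 2.43 ± 0.34, SE, limma adjusted p = 0.00123). Col6a2 was at 4.53, 5.90 and 7.02 FPKM in CCl4 livers and 0.90, 0.946 and 0.596 FPKM in oil livers (log2 difference 1.90 ± 0.29, SE, limma adjusted p = 0.00194). No group overlapped with the other for any of the 3, and replicate 3 was the highest CCl4 liver for Col6a1 and Col6a2. Col6a1 to Col6a2 was 3.15, 2.59 and 2.54 in CCl4 livers and 3.12, 2.75 and 2.01 in oil livers.

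The alternative type VI chains were low. Col6a5 was at 0.31, 0.78 and 2.13 FPKM in CCl4 livers, with replicate 3 the highest, and 0.0349, 0.0406 and 0.0497 FPKM in oil livers. Col6a6 was at 0.222, 0.566 and 0.992 FPKM in CCl4 livers and 0.0573, 0.025 and 0.153 FPKM in oil livers. Col6a4 had at most 3 reads in any library.

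Col14a1, a fibril-associated collagen, was already at 10.6, 10.1 and 11.2 FPKM in oil livers and at 21.9, 16.6 and 19.95 FPKM in CCl4 livers. It was the second most abundant collagen RNA in oil, with a mean of 10.6 ± 0.559 FPKM (SD, n = 3). The rise was the smallest of those called (log2 difference 0.81 ± 0.21, SE, limma adjusted p = 0.025), and it was not called without CCl4 replicate 1 (adjusted p = 0.0753) or without oil replicate 1, 2 or 3 (adjusted p = 0.0904, 0.106 and 0.0696). Col16a1, also fibril-associated, was at 1.88, 3.26 and 0.837 FPKM in CCl4 livers and 0.36, 0.442 and 0.153 FPKM in oil livers (log2 difference 1.11 ± 0.31, SE, limma adjusted p = 0.0356). Its call ended without CCl4 replicate 1 or 2 (adjusted p = 0.0821 and 0.116), without oil replicate 1, 2 or 3 (adjusted p = 0.091, 0.0823 and 0.12) and with no filter (adjusted p = 0.101). Col13a1, a transmembrane collagen, was at 1.72, 0.888 and 0.537 FPKM in CCl4 livers and 1.57, 1.48 and 0.915 FPKM in oil livers, which overlapped (limma adjusted p = 0.666).

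**Figure D2:**
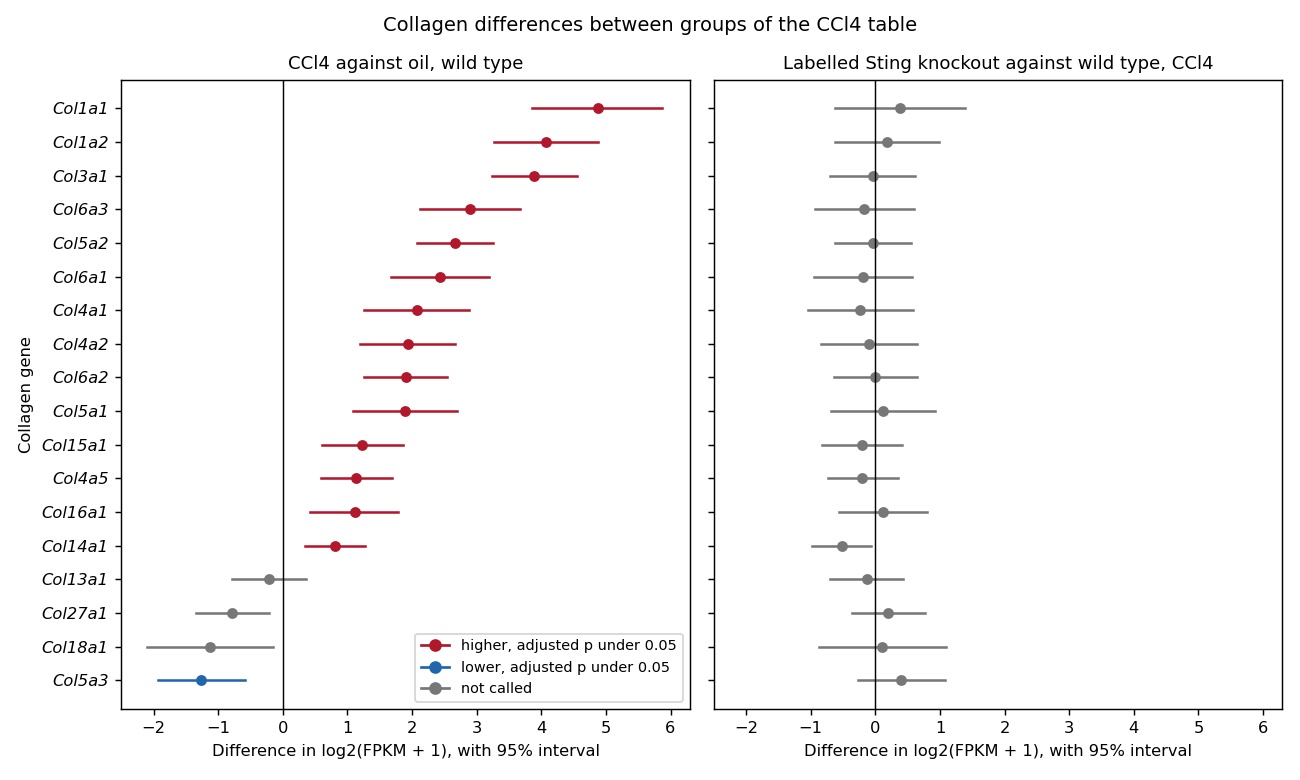
Difference in log2(FPKM + 1) with its 95% interval for the 18 tested collagen genes, for wild-type CCl4 against oil (left) and for CCl4 livers labelled Sting knockout against wild-type CCl4 livers (right), from 1 limma fit of 9 libraries. On the left 14 genes are called higher and 1 lower. On the right none is called, and all intervals but that of Col14a1 include 0.

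A count test on the recovered reads reached members that the filter left out. edgeR's quasi-likelihood test called 22 members in CCl4 against oil, 20 higher and 2 lower, where it called 18.7% of the 14894 genes it tested. It added 6 higher: Col6a5, Col12a1, Col8a1, Col6a6, Col8a2 and Col7a1. Col6a5, Col6a6, Col8a2 and Col7a1 had 15, 26, 6 and 3 reads in total over the oil livers, so their calls rest on few reads. edgeR's filter also keeps genes that have enough reads in a single group. The added members that are low in oil could pass it through the CCl4 livers, so their count is no support on its own. Col12a1, a fibril-associated chain, had 122, 449 and 450 reads in CCl4 livers and 40, 36 and 27 reads in oil livers (edgeR adjusted p = 0.00476). Over the alternatives its adjusted p ran from 4.11e-06 to 0.148. Col8a1, a short-chain collagen of vessel walls, had 59, 234 and 126 reads in CCl4 livers and 29, 11 and 7 reads in oil livers (edgeR adjusted p = 0.00791, range 5.66e-05 to 0.111). The second lower call was Col27a1 (edgeR adjusted p = 0.0354, range 0.00812 to 0.228).

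The composition of collagen RNA turned over. Fibrillar chains held 33.1%, 54.6% and 54.8% of the summed collagen FPKM in wild-type CCl4 livers and 7.83%, 6.95% and 7.29% in oil livers, with no overlap. Col18a1 alone held 33.7%, 17% and 11% in CCl4 livers and 77.9%, 79.7% and 74.9% in oil livers. Because that share depends on 1 abundant gene, the fibrillar share was also taken without Col18a1, and was then 50%, 65.8% and 61.5% in CCl4 livers and 35.5%, 34.2% and 29.1% in oil livers. The summed collagen FPKM was 360, 532 and 313 in CCl4 livers and 249, 231 and 151 in oil livers. Expressed against all genes, collagens held 0.118% ± 0.0308 of all FPKM in CCl4 livers and 0.0416% ± 0.0148 in oil livers (SD, n = 3 each).

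**Figure D3:**
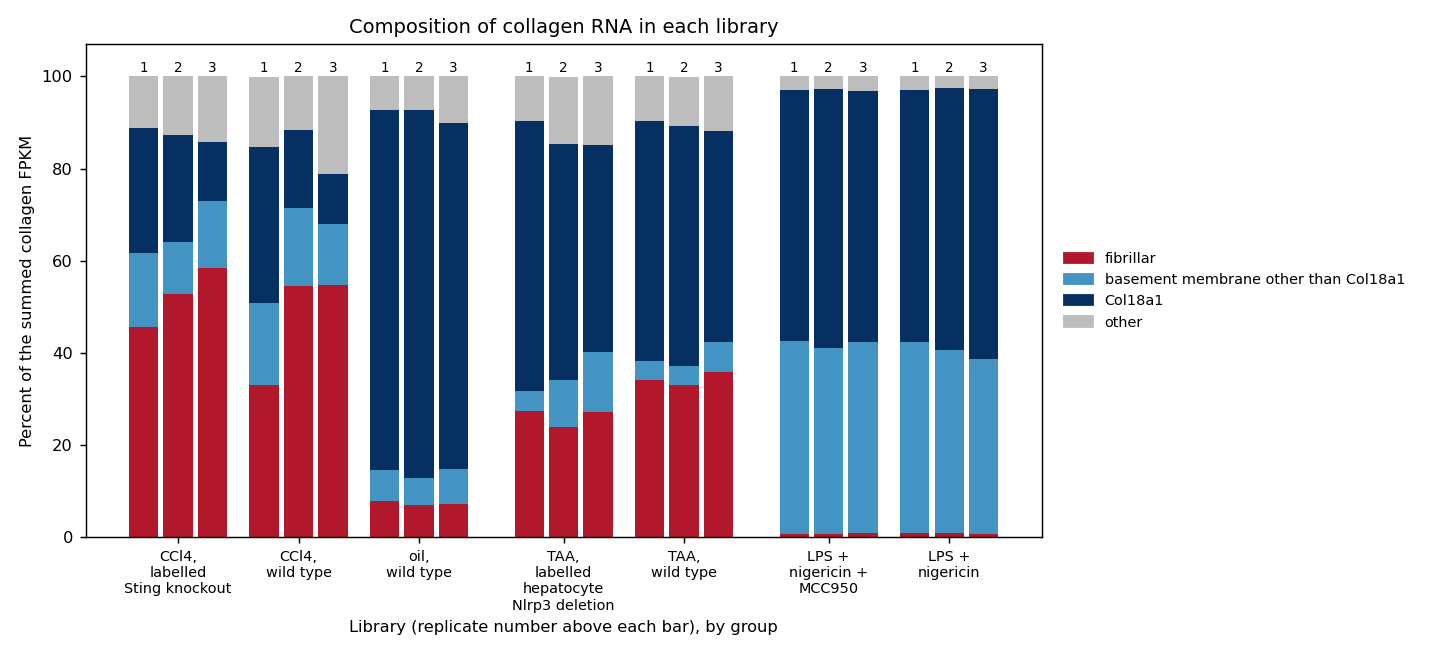
Percent of the summed collagen FPKM held in each library by fibrillar chains, basement membrane chains other than Col18a1, Col18a1 and all other chains, for 21 libraries. Each bar is 1 library, and the 3 tables stand apart because they were normalized separately. Fibrillar chains hold 33.1% to 58.5% in CCl4 livers, 6.95% to 7.83% in oil livers, 24.0% to 35.9% in TAA livers and 0.655% to 1.07% in hepatocytes.

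Genes of collagen biosynthesis and assembly rose in part. Of 20 genes for folding and modifying procollagen, 16 were tested, 7 were higher and 0 lower, with a median log2 difference of 0.52. Serpinh1, the collagen chaperone HSP47, was at 19.5, 99.6 and 36.7 FPKM in CCl4 livers and 6.94, 7.76 and 4.18 FPKM in oil livers (log2 difference 2.59 ± 0.51, SE, limma adjusted p = 0.00733). Of 13 genes for processing and cross-linking, 8 were tested, 5 were higher and 0 lower, with a median of 1.52. The cross-linking enzyme Lox was at 2.23, 6.90 and 6.36 FPKM in CCl4 livers and 0.082, 0.0477 and 0.156 FPKM in oil livers (log2 difference 2.39 ± 0.36, SE, limma adjusted p = 0.00189). Loxl1 and Loxl2, which also cross-link, the procollagen protease Adamts2, and Pcolce, an enhancer of procollagen processing, completed the 5. The groups did not overlap for Serpinh1 or Lox. Among all genes tested 9.19% were higher and 6.15% lower. The lists here and below went through the same filter, and genes low in oil, such as Lox, passed it only through the CCl4 livers. Their counts and medians therefore describe the genes that passed and are no support on their own.

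All 9 fibril-associated genes were tested, and 5 were higher and 0 lower: Sparc, Lum, Postn, Bgn and Thbs2. Sparc, a collagen-binding protein of the matrix, was at 74.8, 143 and 100 FPKM in CCl4 livers and 17.8, 18.8 and 17.2 FPKM in oil livers (log2 difference 2.45 ± 0.29, SE, limma adjusted p = 0.000565). Of 10 receptor and uptake genes 6 were tested, and Ddr1, Mrc2 and Lair1 were higher. Across the pathway and marker lists, 33 genes were called and 15 of these calls ended in at least 1 alternative, among the pathway genes those of Bgn, Ddr1, P4ha1, P3h3, P3h4 and Plod2.

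Markers of other cells moved alongside. Portal fibroblast markers were called higher in 4 of 4 tested, macrophage markers in 4 of 5 and stellate cell and myofibroblast markers in 3 of 7. Sinusoidal endothelial markers were called higher in 1 of 5, cholangiocyte markers in 1 of 4, mesothelial markers in 0 of 3 and hepatocyte markers in 0 of 7. In these lists 0 were called lower, and among all genes tested 9.19% were called higher and 6.15% lower. Hepatocyte markers had a median log2 difference of -0.57, and 4 of the 7 were lower without overlap, as were 21.4% of all genes. Calls that ended in at least 1 alternative were those of Eln, Cd34 and Thy1 among portal fibroblast markers, Csf1r and Adgre1 among macrophage markers, Des and Pdgfrb among stellate cell markers, Lyve1 of sinusoidal endothelium and Spp1 of cholangiocytes. The summed FPKM of the 8 stellate cell and myofibroblast markers was 61.9, 140 and 108 in CCl4 livers and 25.2, 31.0 and 36.4 in oil livers. Acta2, the smooth muscle actin of myofibroblasts, was at 9.64, 87.5 and 56.3 FPKM in CCl4 livers and 1.36, 0.773 and 1.84 FPKM in oil livers; the lowest CCl4 liver, replicate 1, was also lowest for Col1a1, Col1a2 and Col3a1. The 5 macrophage markers summed to 361, 195 and 216 in CCl4 livers and 91.1, 130 and 108 in oil livers. The part of these cells in the collagen differences was not tested. For the 5 members whose calls ended in an alternative, the share of all genes called was 5.58% with no filter, and 8.42%, 8.07% and 8.37% without oil replicate 1, 2 or 3, against 15.3% with all 9 libraries.

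None of the 18 tested collagen genes passed the adjusted test when livers labelled Sting knockout were set against wild-type CCl4 livers. Under CCl4, limma called 0 of the 18 tested collagen genes, and 0 of all 11511 genes tested (0%). At an unadjusted p under 0.05 there was 1 of 18, Col14a1, and 3.18% of all genes; edgeR and DESeq2 on recovered reads also called 0 members. limma with a filter of 0.1 FPKM called 0.00564% of all genes, and with no filter 0.00742%, with 0 members in each. Col1a1 was at 62.4, 53.1 and 142 FPKM in the livers labelled Sting knockout, against the wild-type CCl4 values of 37.4, 116 and 49.1 FPKM. Each group held 1 liver far above its other libraries, replicate 3 in the livers labelled Sting knockout and replicate 2 in wild type. The log2 difference was 0.38 (95% interval -0.63 to 1.38, limma adjusted p = 0.79).

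Col1a2 was at 28.5, 38.1 and 59.4 FPKM in the livers labelled Sting knockout and 20.8, 56.3 and 37.6 FPKM in wild-type CCl4 livers (95% interval -0.63 to 0.98). Col3a1 was at 55.1, 61.1 and 81.6 FPKM in the livers labelled Sting knockout and 46.7, 91.5 and 70.2 FPKM in wild-type CCl4 livers (95% interval -0.70 to 0.61). The intervals of these major scar chains include 0 and extend on both sides of it. Col4a1 was at 30.2, 16.3 and 40.1 FPKM in the livers labelled Sting knockout and 33.1, 47.0 and 20.8 FPKM in wild-type CCl4 livers (95% interval -1.04 to 0.58). Col4a2, at 20.7, 14.6 and 26.7 FPKM in the livers labelled Sting knockout, overlapped the wild-type range too. Col18a1 was at 96.4, 73.9 and 67.5 FPKM in the livers labelled Sting knockout and 122, 90.6 and 34.4 FPKM in wild-type CCl4 livers (95% interval -0.87 to 1.09).

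Type V and type VI chains overlapped as well. Col5a1 was at 6.91, 5.07 and 12.2 FPKM, Col5a2 at 5.88, 6.65 and 11.1 FPKM and Col5a3 at 2.60, 2.88 and 2.48 FPKM in the livers labelled Sting knockout. Col5a3 had the largest positive estimate of the 18 (log2 difference 0.40, 95% interval -0.27 to 1.08, limma adjusted p = 0.761). Col6a1 was at 8.93, 11.6 and 24.3 FPKM, Col6a2 at 3.35, 5.88 and 9.31 FPKM and Col6a3 at 9.42, 6.46 and 19.3 FPKM in the livers labelled Sting knockout. Replicate 3 was the highest of the group for all 3 chains of type VI, and lay above all 3 wild-type CCl4 livers for each. Col4a5 was at 1.77, 1.04 and 2.76 FPKM, Col15a1 at 3.93, 3.62 and 5.90 FPKM and Col16a1 at 1.45, 1.81 and 3.19 FPKM in the livers labelled Sting knockout.

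Col14a1 was the 1 tested member whose groups did not overlap, at 12.9, 11.7 and 15.3 FPKM in the livers labelled Sting knockout and 21.9, 16.6 and 19.95 FPKM in wild-type CCl4 livers. Among all genes 2.78% were lower without overlap. The difference did not pass the test (log2 difference -0.52 ± 0.21, SE, limma adjusted p = 0.761). Taking libraries 1 at a time, replicate 1 of the livers labelled Sting knockout lay inside the wild-type CCl4 range for 15 of the 18 genes and replicate 2 for 11. Replicate 3 lay inside it for 9 and above it for 8. These counts were not made over all genes. That library also had the highest mesothelial marker sum, 66.4 FPKM, against 5.21 and 14.5 FPKM in its group and 5.10, 10.3 and 18.9 FPKM in wild-type CCl4 livers. Its sums were highest too for stellate cell and myofibroblast markers (144 FPKM, next 140), processing and cross-linking genes (65.3 FPKM, next 58.8) and fibril-associated genes (465 FPKM, next 461). In the other lists its sum was not the highest, and for hepatocyte markers it was the lowest of its group (37429 FPKM). The part of these in the collagen values was not tested. limma called 0 genes of any pathway or marker list between these groups.

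Set against oil, which differs from this group in both genotype label and treatment, the livers labelled Sting knockout were higher for 13 collagen genes and lower for 0 of 18 (limma, adjusted p under 0.05), where 8% of all genes tested were higher and 5.91% lower. Col18a1 and Col5a3 were lower without overlap, as were 19.8% of all genes. This comparison shares its oil libraries with the wild-type one. Col1a1 differed by 5.24 ± 0.45 and Col3a1 by 3.85 ± 0.30 in log2(FPKM + 1) (SE, limma adjusted p = 0.00011 and 5.99e-05). The 13 were the 14 of wild type without Col14a1, which was higher in all 3 livers but not called (log2 difference 0.29 ± 0.21, SE, limma adjusted p = 0.399). Col5a3 was lower in all 3 and not called (log2 difference -0.86 ± 0.30, SE, limma adjusted p = 0.0905). The calls of Col15a1, Col4a5 and Col16a1 ended without oil replicate 1, 2 or 3 or without replicate 3 of the livers labelled Sting knockout, with limma adjusted p of 0.0567 to 0.132, and with no filter (adjusted p = 0.107, 0.0887 and 0.0875); those of Col15a1 and Col4a5 also ended without replicate 1 of that group (adjusted p = 0.0726 and 0.0813). Fibrillar chains held 45.7%, 52.8% and 58.5% of collagen FPKM in the livers labelled Sting knockout, all above the oil range. Of the pathway genes, 4 of 16 tested for folding, 5 of 8 for processing and cross-linking, 5 of 9 fibril-associated and 3 of 6 for receptors and uptake were higher, and 0 were lower.

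Under TAA, collagen RNA in wild-type liver was led by Col18a1 and Col5a3 and not by the type I and III chains. Col18a1 was at 83.6, 83.5 and 72.5 FPKM in labelled deletion livers and 87.9, 59.1 and 66.4 FPKM in wild-type TAA livers. Col5a3 was at 18.1, 5.29 and 1.77 FPKM in labelled deletion livers and 34.8, 20.4 and 22.9 FPKM in wild-type livers. In wild-type TAA livers Col5a3 ranked second among collagens, at a mean of 26.02 FPKM, and Col3a1 came next at 5.74 FPKM, with no overlap between their ranges. With no livers free of TAA here, what TAA did to these levels was not analysed.

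edgeR's quasi-likelihood test on the counts called 0 of 37 tested collagen genes between labelled deletion and wild-type livers, and 322 of 18619 genes in all (1.73%). At an unadjusted p under 0.05 there were 9 of 37 collagen genes, against 28.9% of all genes tested. The median log2 difference was -0.06 over the 37 and -0.04 over all genes. Of the 6 members not tested, each had at most 14 counts in any library. Groups did not overlap for 7 of the 37, higher for Col14a1, Col6a2 and Col13a1 and lower for Col5a3, Col7a1, Col9a3 and Col27a1; among all genes 27.8% were higher and 6.68% lower without overlap.

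**Figure D4:**
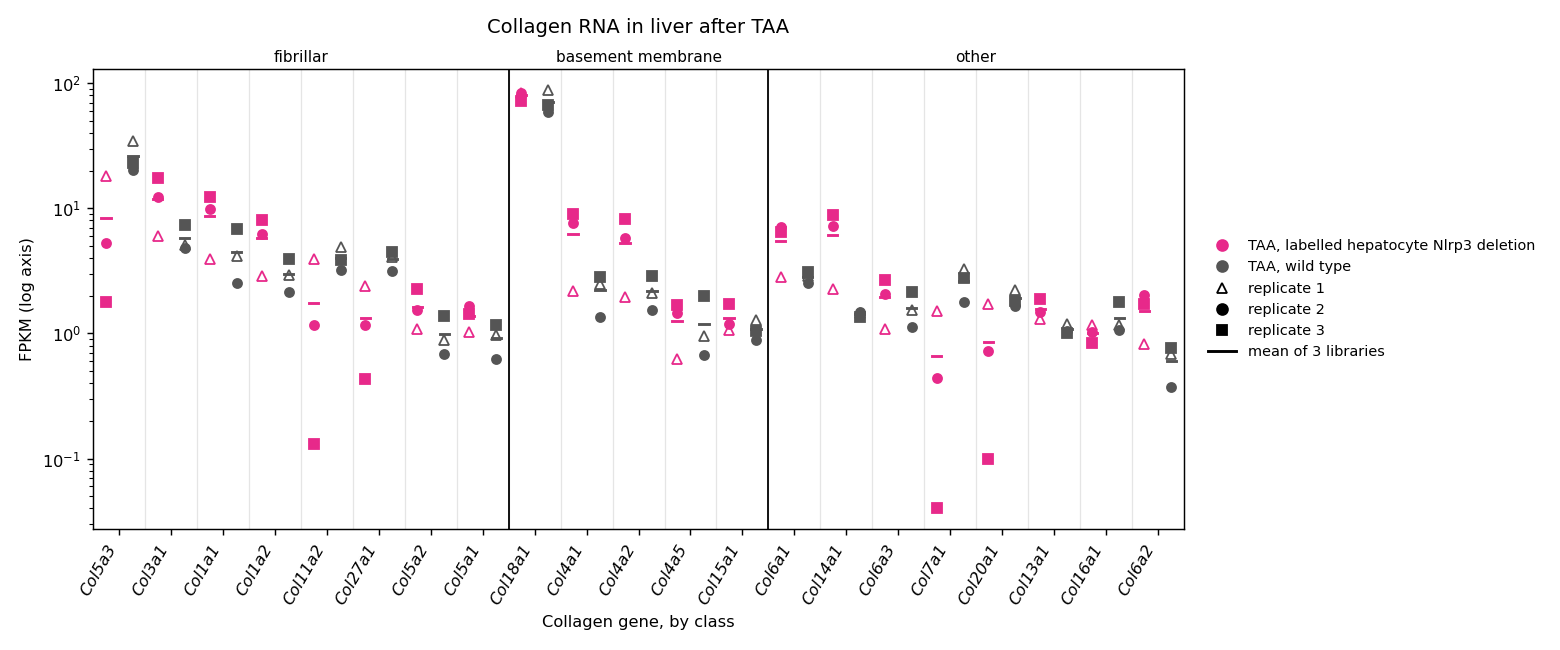
FPKM of the 21 collagen genes that averaged 1 FPKM or more in a TAA group, on a log axis, in 3 livers labelled with the hepatocyte Nlrp3 deletion and 3 wild-type livers. Symbols give the replicate number, open triangles are replicate 1, and bars are means. For Col14a1, Col4a1, Col5a3, Col11a2 and Col7a1, labelled deletion replicate 1 lies nearer to the wild-type livers than labelled deletion replicates 2 and 3 do.

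The labelled deletion livers were not alike, and replicate 1 lay inside the wild-type range for more collagen genes than the others did. Across the 37 tested members it lay inside that range for 24, below it for 9 and above it for 4. Replicate 2 lay inside it for 12 and replicate 3 for 10. The same count was not made over all genes, so it does not show a trait of collagens. The ranges were also taken on deposited FPKM, without the TMM scaling of the edgeR test. Replicate 1 also had the highest mitochondrial share of its group, 12.5%, between its group and the wild-type range. Without it, edgeR called 15 collagen genes, 8 higher and 7 lower, where it then called 38% of 19889 genes. Leaving out any other TAA library gave 0 calls among the members. The 8 higher were the type I and III chains Col1a1, Col1a2 and Col3a1, the type IV chains Col4a1 and Col4a2, Col6a1, Col6a2 and Col14a1. The 7 lower were Col5a3, Col7a1, Col9a3, Col11a2, Col16a1, Col20a1 and Col27a1. These calls rest on leaving out 1 library and describe the spread of the group.

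Values above the wild-type range in labelled deletion replicates 2 and 3 included chains of scar and basement membrane, and none passed the test over all 3 libraries. These ranges are in deposited FPKM, on which limma's median log2 difference over all genes tested was 0.33, against -0.04 by edgeR with TMM. The ratio of mean FPKM and edgeR's fold were 2.82 and 2.19 for Col4a1, 1.95 and 1.52 for Col1a1, and 1.12 and 0.875 for Col18a1. Col1a1 was at 3.94, 9.82 and 12.4 FPKM in labelled deletion livers and 4.15, 2.52 and 6.79 FPKM in wild-type livers (log2 difference 0.60 ± 0.42, SE, edgeR adjusted p = 0.375). Col1a2 was at 2.89, 6.28 and 8.08 FPKM in labelled deletion livers and 2.91, 2.13 and 3.94 FPKM in wild-type livers. Col3a1 was at 5.98, 12.4 and 17.6 FPKM in labelled deletion livers and 5.08, 4.85 and 7.30 FPKM in wild-type livers. In each case replicate 1 lay inside the wild-type range and the other labelled deletion livers above it. Col4a1 was at 2.18, 7.60 and 9.01 FPKM in labelled deletion livers and 2.47, 1.36 and 2.84 FPKM in wild-type livers (log2 difference 1.13 ± 0.45, SE, edgeR adjusted p = 0.151). Col4a2 was at 1.96, 5.79 and 8.22 FPKM in labelled deletion livers and 2.11, 1.53 and 2.87 FPKM in wild-type livers.

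Col14a1 was at 2.26, 7.16 and 8.79 FPKM in labelled deletion livers and 1.46, 1.48 and 1.35 FPKM in wild-type livers, so that every labelled deletion liver was above a narrow wild-type range. It did not pass edgeR's test (log2 difference 1.66 ± 0.43, SE, adjusted p = 0.0646), and over the alternatives its adjusted p ran from 0.000653 to 0.21. Col6a1 was at 2.84, 7.03 and 6.51 FPKM in labelled deletion livers and 2.87, 2.51 and 3.11 FPKM in wild-type livers. Col6a2 was at 0.83, 2.01 and 1.71 FPKM in labelled deletion livers and 0.68, 0.37 and 0.76 FPKM in wild-type livers, without overlap (log2 difference 0.97 ± 0.34, SE, edgeR adjusted p = 0.111). Col6a3, the chain that was raised most of the 3 under CCl4, was at 1.09, 2.08 and 2.66 FPKM in labelled deletion livers and 1.53, 1.13 and 2.14 FPKM in wild-type livers, which overlapped (edgeR adjusted p = 0.884).

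Chains with negative estimates included minor fibrillar chains and collagens better known from cartilage and skin; none passed the test. Col5a3, with the values above, had a log2 difference of -1.94 ± 0.74 (SE, edgeR adjusted p = 0.137, range over the alternatives 0.00158 to 0.343). Col27a1 was at 2.39, 1.16 and 0.43 FPKM in labelled deletion livers and 4.09, 3.16 and 4.48 FPKM in wild-type livers (log2 difference -1.89 ± 0.55, SE, edgeR adjusted p = 0.079). Col11a2, a cartilage fibrillar chain, was at 3.92, 1.16 and 0.13 FPKM in labelled deletion livers and 4.88, 3.23 and 3.83 FPKM in wild-type livers. Col7a1, which forms the anchoring fibrils of skin, was at 1.5, 0.44 and 0.04 FPKM in labelled deletion livers and 3.28, 1.78 and 2.79 FPKM in wild-type livers. Col9a3 had the smallest p of the members (log2 difference -1.80 ± 0.39, SE, edgeR adjusted p = 0.0515), at 0.46, 0.28 and 0.24 FPKM in labelled deletion livers and 0.96, 0.69 and 1.10 FPKM in wild-type livers; it overlaps Tcfl5 on the other strand by 234 bases. For Col5a3, Col27a1, Col11a2, Col7a1, Col9a3 and Col20a1, replicate 3 was the lowest labelled deletion liver and replicate 1 the highest.

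The remaining type IV, V and VI chains lay in overlapping ranges. Col5a1 was at 1.02, 1.66 and 1.42 FPKM in labelled deletion livers and 0.98, 0.63 and 1.17 FPKM in wild-type livers. Col5a2 was at 1.09, 1.53 and 2.28 FPKM in labelled deletion livers and 0.89, 0.69 and 1.37 FPKM in wild-type livers. Col4a5 was at 0.62, 1.45 and 1.69 FPKM in labelled deletion livers and 0.95, 0.67 and 1.98 FPKM in wild-type livers. Col4a3, Col4a4, Col4a6, Col6a5 and Col6a6 were at or below 0.39 FPKM in every TAA library, and Col6a4 at or below 0.01 FPKM.

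Sums of pathway and marker lists also varied among these livers, and not all followed the same libraries. The 9 fibril-associated genes summed to 80.9, 206 and 224 FPKM in labelled deletion livers and 62.5, 49.9 and 72.6 FPKM in wild-type livers, and the 8 stellate cell and myofibroblast markers to 23.3, 47.6 and 47.4 FPKM against 20.3, 16.2 and 24.4 FPKM. The 5 macrophage markers summed to 49.0, 69.6 and 87.9 FPKM in labelled deletion livers and 49.7, 45.0 and 49.1 FPKM in wild-type livers. The 5 sinusoidal endothelial markers summed to 20.4, 21.3 and 48.0 FPKM in labelled deletion livers and 14.8, 13.7 and 14.7 FPKM in wild-type livers, without overlap. Summed cholangiocyte, portal fibroblast and mesothelial markers overlapped between the groups. The 7 hepatocyte markers summed to 25255, 31658 and 32027 FPKM in labelled deletion livers. Their wild-type sums were 10210, 10028 and 9175 FPKM, without overlap. Sums of the 20 folding genes (404, 589 and 537 FPKM, wild type 264, 202 and 285 FPKM) did not overlap either. Nor did those of the 10 receptor and uptake genes (20.5, 47 and 53.5 FPKM, wild type 17.6, 13.8 and 18.4 FPKM). Sums for processing and cross-linking overlapped. All these sums are in deposited FPKM, on which 27.8% of all genes tested were higher and 6.68% lower without overlap. They do not show a trait of these lists. edgeR called 0 of the tested genes in every pathway and marker list. Fibrillar chains held 27.5%, 24.0% and 27.3% of collagen FPKM in labelled deletion livers and 34.1%, 33.1% and 35.9% in wild-type livers, without overlap. Leaving out Col5a3, a choice made after seeing the data, the shares were 17%, 21.5% and 26.5% in labelled deletion livers and 17.1%, 18.5% and 23.8% in wild-type livers, which overlapped. Whether the mitochondrial share or the level of any of these markers had a part in the collagen values was not tested.

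In cultured hepatocytes, nearly all of the summed collagen FPKM came from basement membrane chains. Col18a1 was at 33.4, 41.5 and 37.0 FPKM with MCC950 and 40.2, 47.6 and 47.8 FPKM without it. Col4a1 was at 20.5, 23.5 and 22.99 FPKM with MCC950 and 24.7, 26.5 and 25.02 FPKM without it. The basement membrane chains together held 96.2% ± 0.38 of collagen FPKM with MCC950 and 96.3% ± 0.20 without it (SD, n = 3 each). Levels fell off in the order Col18a1, Col4a1, Col4a2, Col12a1, Col15a1, Col27a1, with no overlap between neighbours in the cultures without inhibitor.

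**Figure D5:**
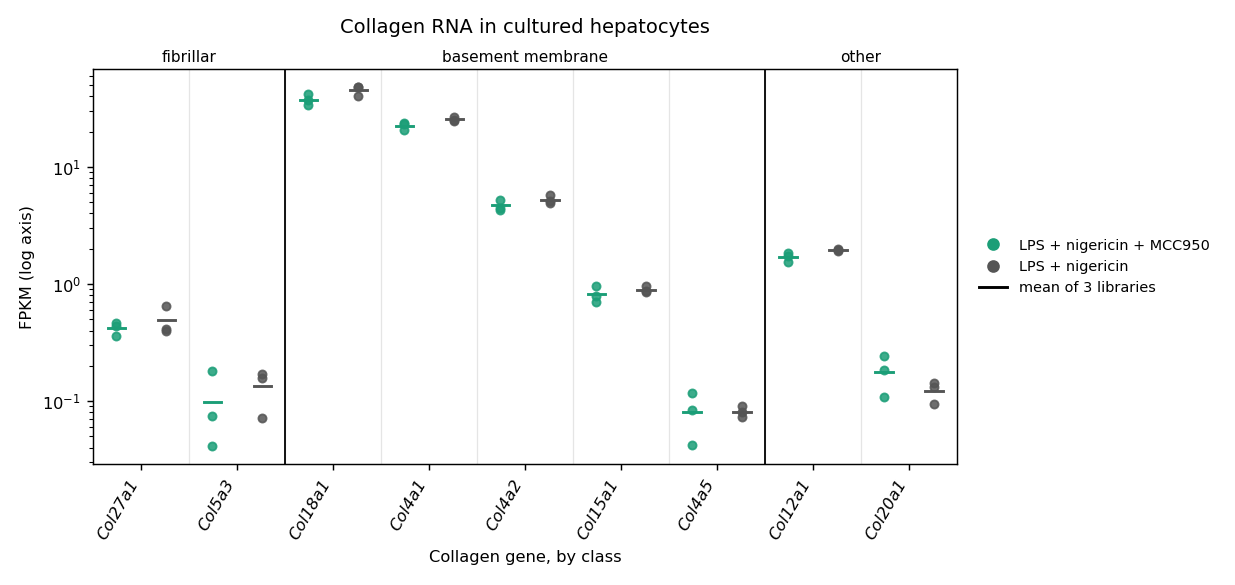
FPKM, on a log axis, of the 9 collagen genes that averaged at least 0.05 FPKM and had reads in all 6 hepatocyte libraries, in 3 cultures given LPS, nigericin and MCC950 and 3 given LPS and nigericin alone. Points are libraries and bars are means. Col18a1 and Col4a1 stand above 20 FPKM in every culture, and no type I, III or VI chain has a place in the plot.

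The chains that dominate the scar were missing from these cultures. Col1a1 had 0 reads in all 6 libraries, where 3 reads would have been 0.0256 to 0.0308 FPKM. Col1a2 had 3 reads in 1 library, Col3a1 had 1 read in one and 5 reads in another, and Col6a2, Col6a3, Col4a6 and Col11a1 were among 12 members with 0 reads throughout. Col6a1 had 1 read in one culture and 2 reads in another. Of the stellate cell and myofibroblast markers, Acta2 was at 0 in every culture and the 8 summed to 1.36, 1.42 and 1.66 FPKM with MCC950 and 1.62, 1.32 and 1.44 FPKM without it, nearly all from Reln. Alb, a hepatocyte marker, was at 26207 FPKM or more in each library. The 5 macrophage markers summed to 33.0, 26.9 and 34.4 FPKM with MCC950 and 35.1, 28.4 and 29.5 FPKM without it. Cd68 made up nearly all of each sum, at 26.7 to 35.0 FPKM, and Csf1r, Clec4f, Adgre1 and Gpnmb were each at or below 0.159 FPKM.

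In hepatocytes the Col4a1 chain stood far above Col4a2. Col4a2 was at 4.49, 5.25 and 4.31 FPKM with MCC950 and 4.88, 5.69 and 5.12 FPKM without it. Col4a1 to Col4a2 was 4.56, 4.47 and 5.33 with MCC950 and 5.05, 4.65 and 4.88 without it. The same ratio lay between 1.12 and 1.62 in all 9 livers of the CCl4 table and between 0.889 and 1.31 in all 6 TAA livers. As a ratio of 2 genes within a library it does not depend on the library's scaling, but tables and cells differ, and the difference was not tested.

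MCC950 made no collagen difference that passed the test. limma called 0 of 4 tested members and 0 of 9835 genes (0%); at an unadjusted p under 0.05 there were 2 of the 4, Col18a1 and Col4a1, and 11.9% of all genes. edgeR on recovered reads called 0 of 8 members and 0 of 12050 genes. DESeq2 gave an adjusted p to only 2 members and 1942 genes, and called 0 of these members and 37 of these genes (1.91%). All 4 estimates were below 0, against a median of -0.01 over all genes. Col18a1 differed by -0.27 (95% interval -0.51 to -0.03, limma adjusted p = 0.402) and Col4a1 by -0.18 (95% interval -0.34 to -0.03, limma adjusted p = 0.402), in log2(FPKM + 1). For Col4a1 and Col12a1, all 3 cultures with MCC950 were below all 3 without it; 10.8% of all genes were lower in this way and 8.88% higher. Col12a1 was at 1.55, 1.72 and 1.83 FPKM with MCC950 and 1.97, 1.96 and 1.91 FPKM without it (limma adjusted p = 0.463). In the pathway and marker lists limma also called 0 genes.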

How the data were processed

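The authors deposited 3 tables, normalized separately, and groups were compared only within a table. Per the file headers, raw counts stand beside FPKM for each gene in the TAA table. The CCl4 and hepatocyte tables hold FPKM as deposited by the authors, with gene lengths. Multiplied by length, 99.88% or more of the FPKM values in each library came to whole multiples of 1 step (tolerance 0.05 reads), and these are called recovered reads. The submitters' processing notes list HISAT2 2.2.1, featureCounts 1.5.0-p3 and the mm10 build; the sources used here do not state strand use or how FPKM was scaled. 

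The CCl4 and hepatocyte tables were tested with limma 3.58.1 (trend) on log2(FPKM + 1), over genes averaging 1 FPKM or more; differences on that scale understate changes of low genes. Counts of the TAA table, as deposited, were tested with edgeR 4.0.16 (quasi-likelihood, TMM, filterByExpr). Tests were two-sided and adjusted by Benjamini-Hochberg over all genes tested, and called at an adjusted p under 0.05. DESeq2 1.42.0 was an alternative, under R 4.3.3. Values are means ± SD of FPKM over 3 libraries. The labels do not say whether replicates are different animals or cultures, so a p-value reflects variation among libraries only, which may be technical. Replicate numbers met a pairing rule where same-numbered libraries deviated together with a correlation over 0.1 in every pair. That rule, which rests on the data and not on labels, was met in CCl4 against oil (0.23, 0.32 and 0.52). It was also met in livers labelled Sting knockout against wild type (0.19, 0.18 and 0.12). Libraries with different numbers were not compared, so the rule does not establish pairing, and the main tests used no pairing.

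The tests were checked on simulated data with known changes. The members, pathway and marker lists and tests were chosen with earlier results of these data known. Values are given per library for chains of types I, III, IV, V and VI, for members called in a comparison and for members at 5 FPKM or more in a group; any other member named was picked with its values known. Promoter windows are RefSeq's, on GRCm38.p6.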

Additional observations from a re-analysis of the deposited data

How the results depend on the processing

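Counts of collagen genes called are given here with the share of all genes called wherever they moved by over 1.5 times. In CCl4 against oil, 15 of 18 by limma (15.3% of all genes) became 23 of 37 with DESeq2 on recovered reads (18.1%). In the livers labelled Sting knockout against oil, 13 of 18 became 20 of 31 with edgeR (16.4%) and 22 of 33 with DESeq2 (17.7%) on recovered reads. Count tests reach low genes that the FPKM filter leaves out. For the labelled Nlrp3 deletion under TAA, 0 of 37 (1.73%) became 4 of 39 with DESeq2 (15.5%), 4 of 21 with limma on log2(FPKM + 1) (23.7%), 3 of 43 with no filter (4.76%) and 1 of 37 (Col9a3) without mitochondrial, rRNA and pseudogene genes (4.05%); Col14a1 and Col27a1 were among the calls in each of the first 3 of these, and the cause was not tested. Leaving out 1 library at a time gave 10 to 15 calls in CCl4 against oil, where 8.07% to 12.4% of all genes were called. It gave 10 to 13 in the livers labelled Sting knockout against oil, where 6.75% to 14.5% of all genes were called. For the labelled Nlrp3 deletion it gave 0 to 15 (15 without its replicate 1, where 38% of all genes were called). Sting and MCC950 gave 0 throughout, with at most 0.00868% and 0.0102% of all genes called.

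With the replicate number as a block, calls were 16 in CCl4 against oil, where Col18a1 was added and 19.3% of all genes were called, and 0 for Sting. The pairing rule was not met in the livers labelled Sting knockout against oil (0.02, 0.18 and 0.09), where the block gave 14 and called 17.9% of all genes. Nor was it met with MCC950 (0.18, 0.22 and 0.09), where the block gave 0, or under TAA (0.08, -0.04 and -0.02), where the block gave 0.

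Estimates near 0 changed sign in the Sting comparison when 1 library was left out (log2 differences). Col3a1 ran from -0.30 to 0.18, Col1a1 from -0.05 to 0.85, Col1a2 from -0.19 to 0.51, Col4a1 from -0.53 to 0.12, Col4a2 from -0.45 to 0.14 and Col4a5 from -0.42 to 0.03. None of these was called. The median of all genes under TAA was -0.04 by edgeR with TMM and 0.33 by limma on the deposited FPKM. Members with few reads a library are limited by depth, and apart from edgeR's calls above no direction is given for them.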
